A study of Homo sapiens with 12 samples.

Results

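Regions bound by STAT5B were compared with regions bound by the glucocorticoid receptor (NR3C1) in 1 cell line under 1 treatment. The regions came from 2 peak lists of chromatin immunoprecipitation with sequencing (ChIP-seq), 1 for each antibody, and those on chromosomes 1 to 22 and X were used. A STAT5B region and an NR3C1 region that shared at least 1 bp were called co-bound, and all others single-factor. The lists held 444 STAT5B and 2888 NR3C1 regions, 3332 of the 11904 regions in the 8 peak lists of the series. Of the STAT5B regions 239 were co-bound (53.8%) and 205 were STAT5B-only. Of the NR3C1 regions 224 were co-bound (7.76%) and 2664 were NR3C1-only.

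The cells were SUPT-1, an established human line of T-cell acute lymphoblastic leukaemia. They carried a doxycycline-inducible STAT5B with the N642H change, an activating mutation in the domain that holds phosphorylated partners, and were induced with doxycycline and selected with puromycin. Both libraries came from cells given prednisolone, a synthetic glucocorticoid, at 250 µg/ml for 16 hours. The other lists of the series came from the same line without prednisolone and from SUPT-1 cells induced to overexpress wild-type STAT5B (WT line), with and without prednisolone. There was 1 library in each group, and 4 further libraries of input DNA were not analysed here. The labels do not say whether the induced cells were 1 clone, and they do not separate the mutant protein from STAT5B that the cells make themselves. With 1 library a side no difference had a replicate check. The intervals given are exact Clopper-Pearson 95% intervals for shares and order-statistic intervals for medians, and they reflect only how many regions were counted, not the spread between cultures.

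STAT5B is a transcription factor that Janus kinases phosphorylate after a cytokine such as interleukin 7 binds its receptor; it then pairs up and binds DNA elements of the form TTC, a spacer and GAA. NR3C1 rests in the cytoplasm with chaperones, enters the nucleus when it binds a glucocorticoid, and binds inverted repeats of a hexamer (AGAACA) or docks onto other DNA-bound factors, STAT5 among them. In lymphoid cells glucocorticoids can cause cell death, while STAT5 drives survival and feedback genes such as BCL2L1, PIM1, CISH and SOCS1.

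The sequences below are promoter windows of 300 bases, from 250 bases before to 50 after the start of a gene, given 5′ to 3′ along the gene from RefSeq (GRCh38.p14). They were chosen to show where the summits of both factors fall and whether the STAT5 element TTCNNNGAA is there; it reads the same on both strands and is in capitals. CISH (chr3:50611725-50612024, minus strand), a feedback inhibitor of cytokine receptors, was co-bound and holds 4 elements, which begin at bases 10, 21, 122 and 139. Its STAT5B summit lay at base 15, inside the first element, and its NR3C1 summit at base 131, between the last elements. GTF3C5 (chr9:133030747-133031046, plus strand), which encodes a subunit of a factor for RNA polymerase III, was co-bound with summits at bases 256 (STAT5B) and 200 (NR3C1) and an element at base 188. CTNNB1 (chr3:41199255-41199554, plus strand), which encodes beta-catenin, was co-bound with both summits at base 173 and holds no element. GTF3C3 (chr2:196799634-196799933, minus strand), another subunit gene of the same factor, was STAT5B-only, with its summit at base 201 and an element at base 204. NR3C1 (chr5:143404187-143404486, minus strand), the receptor's own gene, was NR3C1-only, with its summit at base 164 and an element at base 145.
CISH: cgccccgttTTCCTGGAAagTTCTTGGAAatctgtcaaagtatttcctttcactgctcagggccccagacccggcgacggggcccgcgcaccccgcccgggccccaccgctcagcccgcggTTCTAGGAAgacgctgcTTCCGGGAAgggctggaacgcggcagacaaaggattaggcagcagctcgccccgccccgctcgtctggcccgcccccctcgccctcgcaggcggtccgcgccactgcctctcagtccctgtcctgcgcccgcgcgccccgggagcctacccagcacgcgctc
GTF3C5: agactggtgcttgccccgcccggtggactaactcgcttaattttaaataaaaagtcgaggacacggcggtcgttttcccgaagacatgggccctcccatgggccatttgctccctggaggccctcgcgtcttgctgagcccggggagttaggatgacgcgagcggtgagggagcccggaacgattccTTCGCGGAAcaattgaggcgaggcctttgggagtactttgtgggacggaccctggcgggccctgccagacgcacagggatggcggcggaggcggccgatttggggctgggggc
CTNNB1: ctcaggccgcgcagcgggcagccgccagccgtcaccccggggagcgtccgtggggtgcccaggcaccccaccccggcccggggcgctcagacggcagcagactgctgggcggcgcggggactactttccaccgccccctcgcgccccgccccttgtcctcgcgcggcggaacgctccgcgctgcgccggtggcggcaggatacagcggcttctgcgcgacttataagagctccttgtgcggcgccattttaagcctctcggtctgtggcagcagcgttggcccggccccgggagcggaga
GTF3C3: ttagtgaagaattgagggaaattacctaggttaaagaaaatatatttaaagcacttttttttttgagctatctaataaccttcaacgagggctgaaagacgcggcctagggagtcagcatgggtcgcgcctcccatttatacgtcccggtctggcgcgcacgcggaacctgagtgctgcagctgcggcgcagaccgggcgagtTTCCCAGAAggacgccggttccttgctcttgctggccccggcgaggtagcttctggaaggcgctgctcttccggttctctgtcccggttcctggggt
NR3C1: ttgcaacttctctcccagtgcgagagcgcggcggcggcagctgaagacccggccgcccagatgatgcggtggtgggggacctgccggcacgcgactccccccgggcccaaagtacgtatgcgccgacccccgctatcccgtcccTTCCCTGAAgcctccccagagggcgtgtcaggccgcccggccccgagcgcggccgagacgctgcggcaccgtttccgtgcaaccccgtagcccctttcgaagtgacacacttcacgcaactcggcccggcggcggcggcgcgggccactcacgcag

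Among all promoter windows that held a summit, the element was found in a minority of every class. It was in 7 of 51 co-bound windows (13.7%, 5.70 to 26.3), in 4 of 113 STAT5B-only windows (3.54%, 0.973 to 8.82) and in 14 of 147 NR3C1-only windows (9.52%, 5.31 to 15.5). Of all 22132 promoter windows 6.79% held it, and this share lay inside all 3 intervals. The receptor half-site AGAACA, searched on both strands, was in 5 of 51 co-bound windows (9.80%), in 11 of 113 STAT5B-only windows (9.73%) and in 22 of 147 NR3C1-only windows (15.0%), against 11.7% of all windows. The full palindrome, AGAACA and its inverted copy with a 3-base spacer, was in 0 of the 22132 windows (upper 95% limit 0.0167%). Windows of genes that share a start region overlap, and a match describes letters only. The median GC content was 64.7% in co-bound, 65.0% in STAT5B-only and 63.7% in NR3C1-only windows, against 62.3% in all windows.

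The strength of a region is the authors' own value for it. Fold is the pileup of ChIP tags at the summit over the local background, and −log10 q is its significance in the peak caller. Pileup and local background were solved from these values, and a whole pileup gave the deposited −log10 p to within 0.001 for all regions of both lists. The STAT5B regions had a median pileup of 11 tags (6 to 150) and a median fold of 6.77, and the NR3C1 regions had 18 tags (7 to 274) and a median fold of 8.26, so STAT5B regions rested on fewer tags. Among the promoters shown above, the region at the NR3C1 gene was weak, with 10 tags, fold 4.67 and −log10 q 3.03. It was not called in the WT line with prednisolone. The GTF3C5 pair had 10 tags for STAT5B (fold 7.91) and 13 for NR3C1 (fold 7.35), and was in no other list. In each list the values place regions against each other, and a fold of one antibody set beside that of the other does not measure which factor bound more. Each library was a mixture of many cells, so binding of both factors in the same cells and in different cells cannot be told apart.

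The genome level of background was 0.31 tags for STAT5B and 0.66 for NR3C1, and a local background of 10 times that level or more was found at 67 of the 444 STAT5B regions (15.1%) and at 58 of the NR3C1 regions. These are called high-background regions, together with any region paired with one of them, which added 1 NR3C1 region and made 59. Of the 67, 38 lay on chromosome 16 between 34572670 and 46401608, 16 on chromosome 1 between 125179336 and 143264765, 5 on chromosome 5, 3 on chromosome 4, 2 each on chromosomes 2 and 17 and 1 on chromosome 3. Of the 67, 0 lay inside a protein-coding gene or within 1 kb of a gene start (upper 95% limit 5.36%). Their median fold was 2.55 and their median pileup 117 tags, and 54 of the 67 were co-bound (80.6%, 69.1 to 89.2). In these 54 pairs the median local background was 45.1 tags for STAT5B and 105.5 for NR3C1. In 1 of the 54, on chromosome 17, the NR3C1 member was below 10 times its genome level (4.52 tags). Background was thus high at both members of the other 53, and results that involve strength or location are given without them, and the part of background in their overlap was not tested.

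About 1 in 2 STAT5B regions lay at an NR3C1 region, and few NR3C1 regions lay at a STAT5B region. The co-bound share was 53.8% of STAT5B regions (49.1 to 58.5) and 7.76% of NR3C1 regions (6.81 to 8.79). Without high-background regions 185 of 377 STAT5B regions (49.1%, 43.9 to 54.2) and 180 of 2829 NR3C1 regions (6.36%, 5.49 to 7.33) were co-bound. The NR3C1 list was the longer by far. When it was cut to its 444 strongest regions, 14.2% of STAT5B and 13.3% of NR3C1 regions were co-bound. The smallest overlap that made a pair was 7 bp and the next 12 bp, and the nearest STAT5B-only regions lay 111 and 133 bp outside an NR3C1 region, so the STAT5B-only regions lay clear of the rule's edge. When the overlap had to cover at least 50% of the shorter region, 231 STAT5B regions were co-bound. At 14 NR3C1 regions there were 2 or 3 STAT5B regions, which is why the 2 co-bound counts differ.

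The summits of the pairs lay close together, and the rule itself limits their spacing. A pair must share at least 1 bp, and the overlapping NR3C1 region with the nearest summit was taken. The median distance was 46 bp over all 239 pairs (37 to 54) and 48 bp (37 to 59) over the 185 without high background. Of these 185 pairs 31 had summits within 10 bp, 98 (53.0%) within 50 bp, 150 (81.1%) within 100 bp and 172 (93.0%) within 200 bp. The STAT5B summit fell inside the NR3C1 region in 174 of 185 (94.1%). NR3C1 regions were the wider ones, with a median of 285 bp against 138 bp for STAT5B in these pairs. Along the chromosome the NR3C1 summit had the higher coordinate in 119 of all 239 pairs and the lower in 117, and 3 pairs shared the base. Pairs at gene starts had a median spacing of 39.5 bp and pairs away from them 49 bp.

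**Figure D1:**
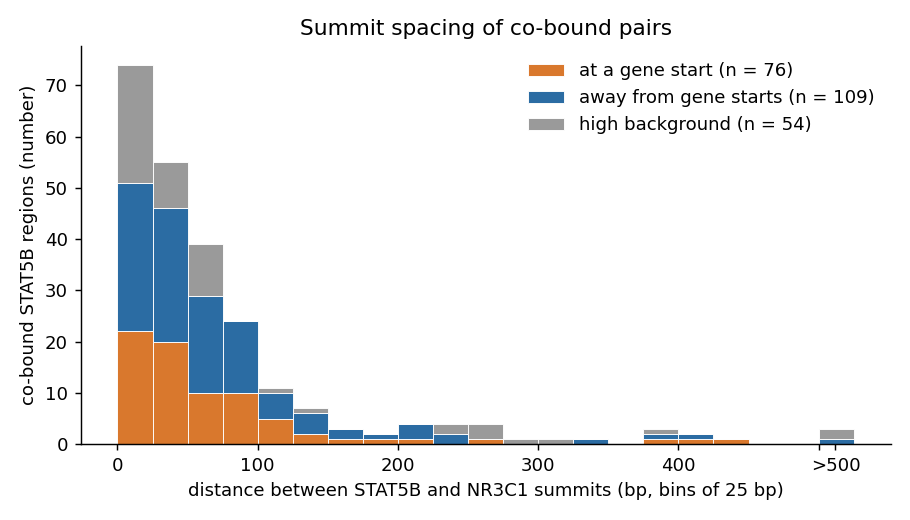
Number of co-bound STAT5B regions (vertical axis) by distance between the STAT5B and NR3C1 summits in bp (horizontal axis, bins of 25 bp, the last bar holding distances over 500 bp), stacked by location and background. Of the 239 pairs 192 lie within 100 bp, and 3 lie beyond 500 bp.

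A few pairs were spaced widely. The widest, 1048 bp, was 1 of 2 STAT5B regions under a single NR3C1 region upstream of KLF9, a glucocorticoid-induced zinc finger gene (NR3C1 fold 77.6). That region is 1707 bp wide, and its other STAT5B summit lay 61 bp from the NR3C1 summit with a fold of 11.3, against 6.87 for the distant one. The next widest, 563 and 533 bp, were high-background pairs on chromosome 16 whose nearest gene was SHCBP1 (NR3C1 fold 2.05 and 1.93). At ARMC12, beside FKBP5, STAT5B summits lay 433 and 64 bp from the NR3C1 summit (STAT5B −log10 q 3.48 and 9.17). At DDIT4, a stress-induced inhibitor of mTOR signalling, the spacing was 423 bp (STAT5B fold 6.47, NR3C1 fold 15.7). At BCL6, a repressor that STAT5 is known to control, it was 408 bp (STAT5B fold 7.30, NR3C1 fold 11.9).

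Stronger STAT5B regions were more often at an NR3C1 region. Without high-background regions, and from the weakest to the strongest of 5 groups of like size by −log10 q, 24 of 76, 25 of 75, 39 of 75, 37 of 75 and 60 of 76 STAT5B regions were co-bound (31.6% to 78.9%). Among the 20 strongest 18 were. The median STAT5B fold was 7.60 (7.20 to 7.88) in co-bound and 6.74 (6.47 to 6.95) in STAT5B-only regions, and the median −log10 q was 6.49 against 5.18. The pileups differed by 1 tag in the median, 11 against 10. The difference in median fold depended on which regions were kept. It was 0.858 without high-background regions and 0.288 with all regions. With −log10 q of at least 5 in both lists, high-background regions included, it was −0.26, with co-bound regions the lower.

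The strongest NR3C1 regions were also more often co-bound. Without high-background regions, in the 4 weaker of 5 groups 4.77% to 5.31% of NR3C1 regions were co-bound, and in the strongest group 66 of 566 (11.7%, 9.13 to 14.6). The share was highest at the very top of the list. Over all 2888 NR3C1 regions, 18 of those ranked 1 to 20 were co-bound (90.0%, 68.3 to 98.8), 9 of the 80 ranked 21 to 100 (11.2%, 5.28 to 20.3), 36 of the 400 ranked 101 to 500 (6.38 to 12.2) and 161 of the 2388 after them (6.74%, 5.77 to 7.82). Without high-background regions the median NR3C1 fold was 9.81 (9.02 to 11.3) in co-bound and 8.27 (8.05 to 8.45) in NR3C1-only regions, a difference of 1.54. With all regions the difference was 0.137, and with all regions and summits within 200 bp in place of overlap it was −0.193, with co-bound regions the lower.

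**Figure D2:**
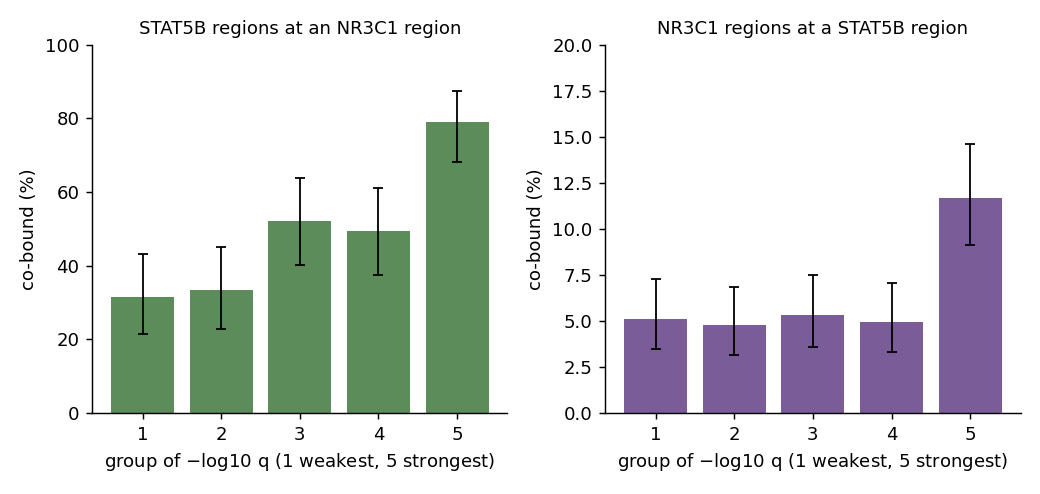
Share of regions that were co-bound (percent, vertical axes, which differ in range) in 5 groups of −log10 q within each list (horizontal axes, weakest to strongest), without high-background regions. Bars are shares and whiskers are exact 95% intervals. The STAT5B share goes from 31.6% to 78.9%, and the NR3C1 share stays near 5% in the 4 weaker groups and is 11.7% in the strongest.

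Within pairs the folds of both factors were only loosely related. The NR3C1 fold was above the STAT5B fold in 132 of 185 pairs without high background (71.4%), with a median ratio of 1.36, and in 1 of 54 high-background pairs. Over the 185 pairs the Spearman correlation of the folds was 0.23. It was 0.37 over the 109 pairs away from gene starts and 0.04 over the 76 at gene starts. With the 54 high-background pairs, which had low folds in both lists, it was 0.63 over all 239 pairs. These correlations run across sites of the same libraries, whose local backgrounds also vary from site to site, and sites are not replicates.

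**Figure D3:**
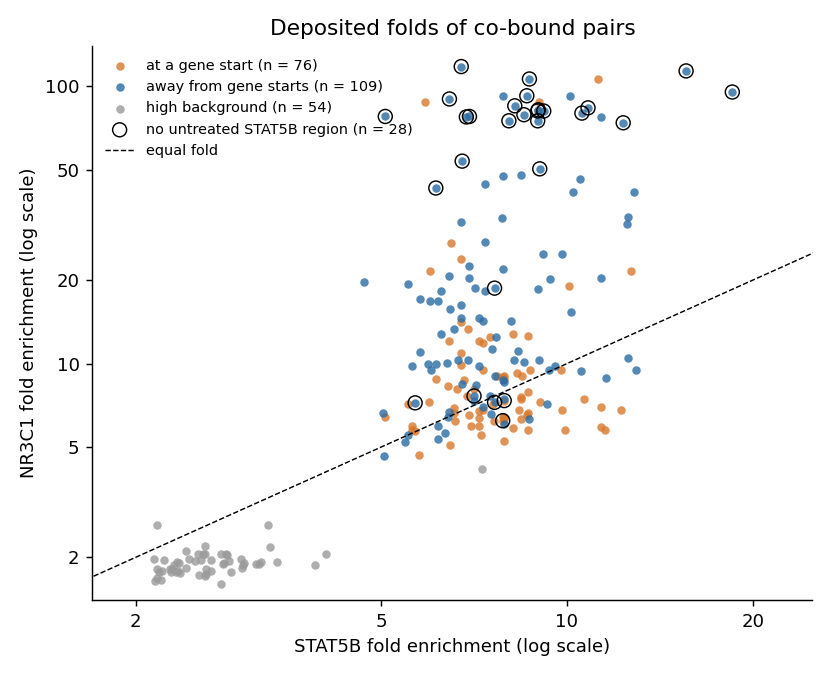
Deposited STAT5B fold (horizontal log axis) against NR3C1 fold (vertical log axis) for the 239 co-bound pairs, coloured by location and background, with the line of equal fold. Open circles mark the 28 pairs that had neither high background nor an untreated STAT5B region in the N642H line, 22 of which lie above an NR3C1 fold of 40, while the STAT5B folds of all 185 pairs without high background stay between 4.69 and 18.5.

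The strongest site for both factors together lay 31794 bp downstream of the start of SOCS1, the feedback inhibitor of Janus kinases, between genes at chr16:11224224-11224570. STAT5B had a fold of 18.5 there (32 tags), the highest of its list, and NR3C1 a fold of 95.5 (267 tags), with summits 10 bp apart. STAT5B had no region there in any of its other 3 lists, and NR3C1 had one of fold 34.4 in the WT line with prednisolone. A second co-bound site lay 22935 bp downstream of the SOCS1 start (chr16:11233024-11233424), with STAT5B fold 12.6, NR3C1 fold 33.9 and summits 59 bp apart. Its pattern over the lists was the reverse: STAT5B had a fold of 32.9 there in the untreated N642H line and 6.16 in the untreated WT line, and NR3C1 had no region there in the WT line.

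The next site was inside KLF13, a zinc finger gene that glucocorticoids induce in lymphoid cells, 39100 bp from its start (chr15:31365754-31366026). STAT5B had a fold of 15.6 and NR3C1 one of 114, with summits 9 bp apart. STAT5B was also called there in the WT line, with folds of 14.5 with and 4.14 without prednisolone, and not in the untreated N642H line. KLF13 had another co-bound site 421 bp upstream of its start, with STAT5B fold 6.48, NR3C1 fold 27.3 and summits 5 bp apart.

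Inside BCL2L1, which encodes the survival protein BCLXL, 1 site was co-bound (chr20:31675949-31676087), 46886 bp downstream of the start. STAT5B had a fold of 12.9 (19 tags) and NR3C1 one of 41.7 (116 tags), and the summits lay 2 bp apart. The untreated N642H line had a STAT5B fold of 17.1 there, and neither factor had a region there in the WT line.

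Other strong pairs by STAT5B were upstream of ZBTB7B, a T-cell lineage factor (STAT5B fold 12.9, NR3C1 fold 9.45, 153 bp apart), and in KIF3C, a kinesin gene (12.3 and 73.9, 7 bp). Further pairs lay downstream of RPS6KA1, a kinase gene (12.5 and 32.0, 349 bp), in OTUD5 beside PIM2, a survival kinase gene (12.6 and 10.5, 6 bp), and downstream of DAD1, which encodes a glycosylation enzyme subunit (11.4 and 20.4, 82 bp). The DAD1 pair lay 8469 bp outside that gene. Only protein-coding genes were used to name sites, so genes of other types that lie closer were not considered. The NR3C1 fold ranged from 9.45 to 114 over the 10 pairs with the strongest STAT5B.

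The strongest pairs by NR3C1 began 32478 bp from SMOX, a polyamine oxidase gene, where NR3C1 had its highest fold, 118, and STAT5B a fold of 6.74. At FKBP5, a co-chaperone of the receptor and a classical target, the pair lay 458 bp downstream of the start (chr6:35728067-35728279), with STAT5B fold 11.2, NR3C1 fold 106 and summits 10 bp apart. STAT5B had a region there in all its lists, with folds of 5.86 untreated in the N642H line, 17.2 with prednisolone in the WT line and 9.07 without it. Inside CCND3, which encodes cyclin D3, STAT5B had a fold of 7.86 and NR3C1 one of 92.1, 109 bp apart, and STAT5B was again called in all its lists (6.64 to 9.87). Downstream of ANAPC16, which encodes a subunit of the anaphase-promoting complex, 2 STAT5B regions (fold 5.08 and 6.95) lay under 1 NR3C1 region of fold 77.9. All 20 of the strongest NR3C1 regions were also called in the WT line with prednisolone, with folds from 9.28 to 76.9, and 2 of the 20 lay at a gene start.

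Location separated the classes. Without high-background regions 148 of 192 STAT5B-only regions (77.1%, 70.5 to 82.8) had their summit within 1 kb of the start of a protein-coding gene, against 76 of 185 co-bound regions (41.1%, 33.9 to 48.5) and 295 of 2649 NR3C1-only regions (11.1%, 9.96 to 12.4). These 3 intervals, which reflect counting only, did not overlap. Those of co-bound and NR3C1-only regions did overlap with a shortened NR3C1 list, as given below. Elsewhere inside genes lay 4.17% of STAT5B-only, 22.7% of co-bound and 46.4% of NR3C1-only regions, and the rest lay between genes. With high-background regions included the shares at gene starts were 72.2%, 31.8% and 11.1%. Read the other way, 76 of 224 STAT5B regions at gene starts were co-bound (33.9%), 42 of 50 inside genes (84.0%, 70.9 to 92.8) and 67 of 103 between genes (65.0%, 55.0 to 74.2). For NR3C1 the order was turned, with 74 of 369 regions at gene starts co-bound (20.1%, 16.1 to 24.5), 3.30% of those inside genes and 5.39% of those between genes.

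**Figure D4:**
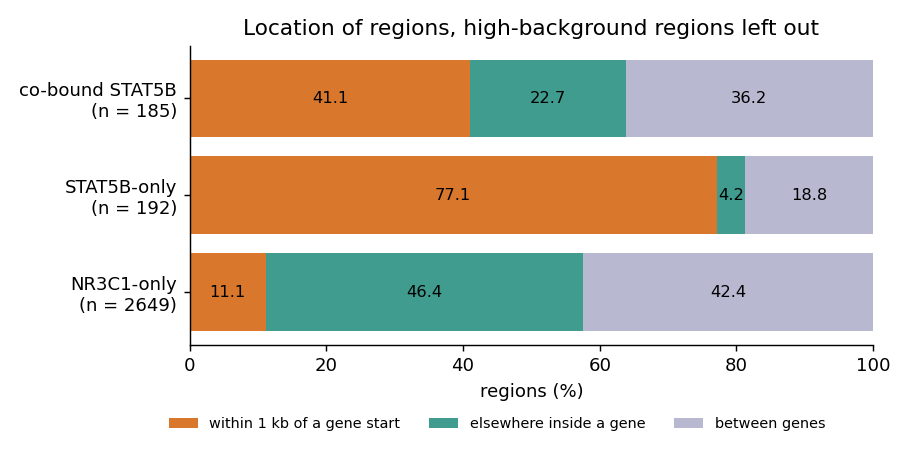
Share of regions (percent, horizontal axis) within 1 kb of a gene start, elsewhere inside a gene and between genes, for co-bound STAT5B, STAT5B-only and NR3C1-only regions without high background (n beside each bar). The share at gene starts is 41.1%, 77.1% and 11.1%.

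Pairs at gene starts and pairs away from them had like STAT5B folds and different NR3C1 folds. The median STAT5B fold was 7.61 at gene starts (76 pairs) and 7.57 away from them (109 pairs). The median NR3C1 fold was 7.31 (6.78 to 8.70) at gene starts and 16.3 (11.1 to 20.2) away from them, and the median rank of the NR3C1 region in its list was the 36.9 percentile against the 85.2. NR3C1-only regions at gene starts also had a lower median fold than those elsewhere, 6.67 against 8.45. At the 60 pairs with a known gene direction the NR3C1 summit lay downstream of the STAT5B summit in 22, upstream in 37 and on the same base in 1. The highest NR3C1 folds at gene starts were those of FKBP5 (106) and ARMC12 (87.9), and the next was that of KLF13 (27.3). ARMC12 had no directed start, so either end of the gene stood for it.

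STAT5B-only regions sat closest to starts: the median distance of those at gene starts was 73 bp, against 102 bp for co-bound and 166 bp for NR3C1-only regions. Outside high background the strongest STAT5B-only region by −log10 q lay at the start of HIGD2A, a mitochondrial respiratory chain gene (fold 11.9, 20 tags), followed by CPPED1, a phosphatase gene (11.6), TMEM41A, a membrane protein gene (10.9), and CENPU, a centromere protein gene (10.3). These 4 lay 13 to 275 bp from a start, and STAT5B was called at all of them in the untreated N642H line (5.24 to 11.0). CLPB, a mitochondrial disaggregase gene, had a fold of 9.73 and no region in any other STAT5B list. OR4F15, GRAPL and KCNN1 were the nearest genes to 3 of the 10 strongest that lay between genes (fold 9.55 to 9.73). STAT5B-only regions overlap no NR3C1 region by definition, which leaves out those with NR3C1 at the same place. Of the 192, 5 had an NR3C1 summit within 1 kb and 13 within 10 kb. The median distance to the nearest was 201238 bp.

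Some NR3C1-only regions were among the strongest of the list. By −log10 q the first lay 14451 bp downstream of the start of GNLY, which encodes granulysin (fold 86.2, −log10 q 358), and the next 9864 bp from ZFP36L2, an RNA decay factor gene (fold 99.3). Others were near SRP14 and GRAMD2B, in CDK15, inside FKBP5 86820 bp from its start (fold 59.2), and 1342 bp upstream of DUSP1, a MAP kinase phosphatase gene (fold 67.4). All 10 of the strongest were also called in the WT line with prednisolone (fold 19.2 to 50.1), and in 4 of them, SRP14, CDK15, FKBP5 and DUSP1, STAT5B had a region in the WT line with prednisolone (fold 4.28 to 8.68). Of the 2664 NR3C1-only regions, which by definition overlap no STAT5B region, 15 had a STAT5B summit within 1 kb.

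Most co-bound sites overlapped a STAT5B region of the untreated N642H line, a separate library with a far longer list. That list held 4541 regions at a genome background of 0.98 tags, against 444 at 0.31 in the prednisolone list. Of the 185 pairs without high background 157 overlapped a STAT5B region of the untreated N642H line (84.9%, 78.9 to 89.7), as did 155 of 192 STAT5B-only regions (80.7%) and 645 of 2649 NR3C1-only regions (24.3%). With high-background regions the first 2 shares were 66.1% and 75.6%, since 1 of the 67 high-background STAT5B regions was in the untreated list. At gene starts 74 of 76 pairs were in it, and away from them 83 of 109. The untreated NR3C1 lists had 2 regions each on the chromosomes used, too few for a comparison, and 0 of the 239 pairs overlapped them. In the NR3C1 list of the WT line with prednisolone 65 of 185 pairs were present (35.1%, 28.3 to 42.5), 49 of the 109 away from gene starts and 16 of the 76 at them. STAT5B-only regions overlapped that list in 2 of 192 cases. That class was chosen for lacking NR3C1 with prednisolone in the N642H line, so its low share follows in part from its definition. The lists differ in length and depth, and each membership describes a list, not a change.

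The 28 pairs that had no untreated STAT5B region in the N642H line had mostly strong NR3C1 regions. Their median NR3C1 fold was 77.9 (53.8 to 82.4), against 9.45 (8.70 to 10.3) for the 157 others, while their median STAT5B fold was 8.14 against 7.37. The counts and intervals are of pairs, not of separate NR3C1 regions. Near ANAPC16 (NR3C1 fold 77.9) and LOC107985876 (75.2), 2 of the pairs share 1 NR3C1 region. The KLF9 pair among the 28 shares its NR3C1 region with a pair that had an untreated STAT5B region (fold 10.1). Of the 28, 26 lay away from gene starts, 22 were in the NR3C1 list of the WT line, 15 were in the STAT5B list of the WT line with prednisolone, and 24 were in neither untreated STAT5B list. Beside the SOCS1, KLF13, KIF3C and SMOX sites they included, named after their values were seen, a site in IKZF1, the gene of the lymphoid factor Ikaros (STAT5B fold 8.61, NR3C1 fold 92.5, 43 bp apart). Another lay upstream of IL7R, the receptor gene of interleukin 7 (6.76 and 53.8, 13 bp), another upstream of CXCR4, a chemokine receptor gene (9.17 and 81.5, 20 bp), and another 166685 bp upstream of NR3C1 itself (10.6 and 80.1, 1 bp). The IL7R site had an NR3C1 fold of 14.9 in the WT line and no STAT5B region in any other list.

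The pairs were ordered by NR3C1 −log10 q in 5 groups of 37. In the 4 weaker groups 36, 33, 37 and 36 pairs had an untreated STAT5B region, and in the strongest group 15 (40.5%, 24.8 to 57.9). Over the same groups the number at a gene start was 26, 25, 15, 7 and 3, and the number in the NR3C1 list of the WT line was 4, 6, 9, 17 and 29.

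**Figure D5:**
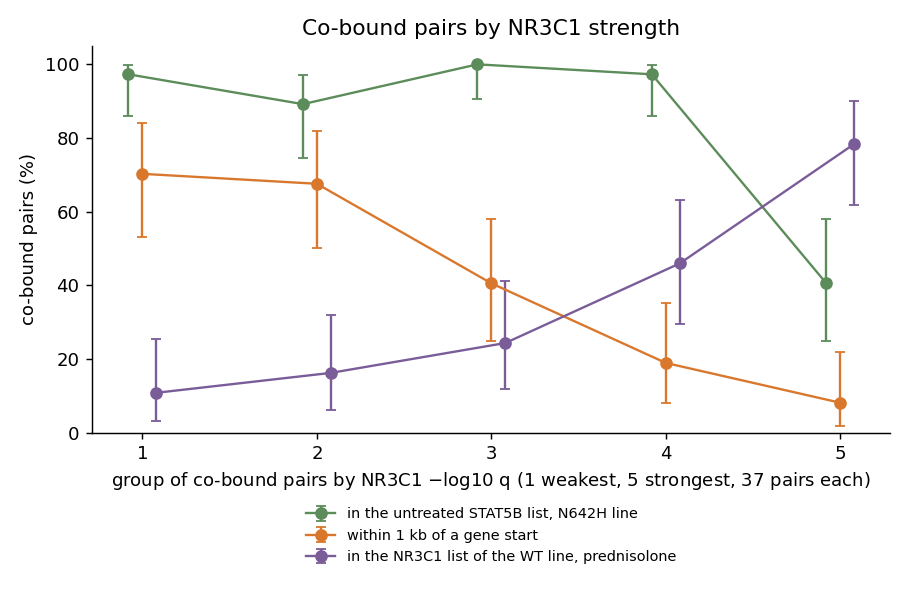
Share of the 185 co-bound pairs without high background (percent, vertical axis) that overlap an untreated STAT5B region of the N642H line, lie within 1 kb of a gene start, or overlap an NR3C1 region of the WT line with prednisolone, in 5 groups of NR3C1 −log10 q (horizontal axis, 37 pairs each). Points are shares and whiskers exact 95% intervals; the first share is 40.5% in the strongest group and at least 89.2% in the others.

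Genes were linked to a region when a summit lay in the gene or within 20 kb. Of 19821 protein-coding genes 246 were linked to a co-bound region (1.24%), 354 to a STAT5B-only region (1.79%) and 1992 to an NR3C1-only region (10.0%). To any STAT5B region 591 were linked (2.98%) and to any NR3C1 region 2178 (11.0%). The gene lists below and their members were chosen with earlier results of these data known. Their shares therefore describe the lists and cannot serve as a check on the regions. Among 30 genes of the glucocorticoid response 7 were linked to co-bound regions (23.3%): CXCR4, DDIT4, FKBP5, IL7R, KLF13, KLF9 and TXNIP. PER1, a clock gene that glucocorticoids induce, had a STAT5B-only region (fold 6.18), and 19 genes had NR3C1-only regions (63.3%, against 10.0% of all genes), among them NFKBIA, the gene of an NF-kappa-B inhibitor (fold 33.4), and TSC22D3, the gene of the glucocorticoid-induced leucine zipper (fold 33.2). The 20 kb limit leaves out more distant sites. Within 50 kb TSC22D3 also had a co-bound site, with STAT5B fold 8.69 and NR3C1 fold 106. TXNIP, a gene of glucose and redox control, had its pair 10842 bp upstream, with STAT5B fold 10.1, NR3C1 fold 92.1 and a STAT5B fold of 9.18 in the untreated N642H line.

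Among 30 STAT5 target genes 7 were also linked to co-bound regions (23.3%, against 1.24% of all genes): ARID3B, BCL2L1, BCL6, CCND3, CISH, PIM1 and PIM2. SOCS1 is not among these 7, since its 2 co-bound sites lay beyond 20 kb and within 50 kb. The PIM1 pair lay 13165 bp downstream of the start of this survival kinase gene, with a STAT5B fold of 4.69, near the bottom of the list, and an NR3C1 fold of 19.6. The untreated STAT5B fold there was 25.8. ARID3B, a DNA-binding protein gene, had a pair inside the gene with STAT5B fold 8.99, NR3C1 fold 18.6 and untreated STAT5B fold 33.3. At CISH, whose promoter is shown above, the STAT5B fold was 7.91, the NR3C1 fold 6.41 and the untreated STAT5B fold 12.7. SOCS2, another feedback inhibitor, had a STAT5B-only region (fold 6.66), and 13 of the 30 had NR3C1-only regions (43.3%, against 10.0% of all genes). MYC, which drives growth, had an NR3C1-only region of fold 4.03 and no STAT5B region within 20 kb.

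Of 20 BCL2 family genes 1 was linked to a co-bound region, BCL2L1 (5.0%, against 1.24% of all genes). To NR3C1-only regions 7 were linked (35.0%, against 10.0% of all genes). BCL2, the founding survival gene, had 3 NR3C1-only regions within 20 kb, the strongest of fold 18.4, and BCL2L11, which encodes the death protein BIM, had 2, the strongest of fold 26.4. Neither had a STAT5B region within 20 kb, which 2.98% of all genes had. Of 23 genes of the interleukin 7 and JAK-STAT pathway 4 were linked to co-bound regions. Among them were IL7R and STAT3, whose pair lay 383 bp upstream of the start (STAT5B fold 7.07, NR3C1 fold 8.07). Of 24 T-lineage transcription factor genes 3 were co-bound (IKZF1, TCF3 and ZBTB7B) and 17 had NR3C1-only regions (70.8%). Of 24 protein-coding genes of T-cell surface and signalling 0 were co-bound, 1 had a STAT5B-only region (PTPN22) and 13 had NR3C1-only regions (54.2%), such as CD3E, CD28 and PTPRC. Of all genes 1.24% had co-bound, 1.79% STAT5B-only and 10.0% NR3C1-only regions.

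Of 20 receptor chaperone and cofactor genes 1 was co-bound (FKBP5), 3 had STAT5B-only regions (HDAC2, MED1 and NCOR1) and 5 had NR3C1-only regions. Of all genes 1.79% had STAT5B-only and 10.0% NR3C1-only regions. Of 16 non-blood tissue genes 0 were linked to any region of either factor, and of 16 genes of other blood cells 1 was co-bound (CD79A) and 1 had an NR3C1-only region (ELANE), so that 2 of the 16 were linked to any NR3C1 region (12.5%, against 11.0% of all genes). Of 24 widely expressed genes 0 were co-bound, 2 had STAT5B-only regions (ACTB and UBB) and 3 had NR3C1-only regions (12.5%, near the 10.0% of all genes), HSPA8 and PPIA among them. Read against the 1.24% of all genes linked to co-bound regions, the lists lay between 0 and 23.3%. No list was tested, the lists were chosen with earlier results of these data known, and genes differ in span.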

How the data were processed

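ChIP-seq of STAT5B and NR3C1 was compared in the prednisolone-treated N642H line, with 1 library per antibody. BWA, MACS2, deepTools and the genome build hg38 are named in the submitters' processing notes; versions, and the input library used as control, are not given in the sources used here. The authors deposited 1 peak list per library with a score, a fold (ratio of pileup to local background, each with a pseudocount of 1), −log10 p, −log10 q and summit offset for each peak. From the values, the score is 10 times the −log10 q, and all listed peaks have a −log10 q of at least 2. These are the authors' values, and no p-value was computed here.

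Overlap, summit distance, medians and exact binomial intervals were computed in Python 3.11.15 (pandas 2.3.3, scipy 1.17.1). Pileup and local background were solved from fold and −log10 p; on simulated peaks 400 of 400 were recovered at low and 400 of 400 at high background, and a planted overlap was recovered in 20 of 20 runs. Gene spans and 22132 promoter windows came from RefSeq tables (GRCh38.p14). The windows gave a directed start for 15812 of 19821 protein-coding genes, and for the other 4009 either end stood for the start. Exons and introns were not used here. Coordinates are counted from 1.

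Genes named are the nearest of the 10 strongest regions of each class, the 5 pairs strongest in both lists, the 5 widest spaced pairs, up to 6 linked members of each of 10 gene lists, and 16 fixed genes; others were named after their values were seen. Some genes under these rules are not reported here. Members and lists were chosen with earlier results of these data known. Alternatives were other thresholds, overlap rules, list lengths, distances and leaving out high-background regions; counting either end of every gene as a start was added after seeing the data.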

Additional observations from a re-analysis of the deposited data

Results flagged for a closer look

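Sequences outside chromosomes 1 to 22 and X carried signal that the comparisons do not use. The STAT5B list had 34 such regions, 2 on Y, 2 on the mitochondrial genome and 30 on unplaced, unlocalised or decoy sequences, and 19 of the 34 overlapped an NR3C1 region. The NR3C1 list had 34, of which 0 were on Y or the mitochondrial genome.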

How the results depend on the processing

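With 1 library per antibody no replicate could be left out. No paired analysis was possible because every group held 1 library and the labels give no replicate numbers. Of 78 recomputed values 45 stayed within their interval or within 1.5 times a count, 31 moved further and 2 changed sign.

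With −log10 q of at least 5, 60.6% of STAT5B and 6.64% of NR3C1 regions were co-bound, the difference in median STAT5B fold (co-bound minus STAT5B-only, 0.288 with all regions) turned to −0.26, and 9.67% of NR3C1-only regions lay at gene starts. With fold of at least 5 the co-bound shares were 48.8% and 6.53%, the median differences were 0.883 (STAT5B) and 1.399 (NR3C1, 0.137 with all regions), 41.2% of co-bound regions lay at gene starts, 84.6% were in the untreated STAT5B list and 35.7% in the NR3C1 list of the WT line.

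With the NR3C1 list cut to the length of the STAT5B list the co-bound shares were 14.2% and 13.3%, and the median differences 1.57 and 15.8. The shares at gene starts were 12.7% (co-bound, 5.65 to 23.5), 56.7% (STAT5B-only) and 3.64% (NR3C1-only, 2.00 to 6.03), and the intervals of co-bound and NR3C1-only regions overlapped. Of co-bound regions 60.3% were then in the NR3C1 list of the WT line, and 50 genes were linked. Without high-background regions 6.36% of NR3C1 regions were co-bound, the median differences were 0.858 and 1.54, 41.1% of co-bound regions lay at gene starts, 84.9% were in the untreated list and 35.1% in the WT list.

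With summits within 200 bp in place of overlap 48.6% of STAT5B regions were co-bound, 88.9% of pairs lay within 100 bp, and the difference in median NR3C1 fold was −0.193. At 500 bp and 2 kb to a gene start 9.16% and 14.0% of NR3C1-only regions lay at gene starts. With linking distances of 5 and 50 kb 159 and 407 genes were linked. In each of these settings for which location was recomputed, which leaves out the stricter overlap rule, the share at gene starts was highest in STAT5B-only and lowest in NR3C1-only regions. Low pileups limit weak STAT5B regions, and the cause of these shifts was not tested.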
